A study of Mus musculus with 12 samples.

Results

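The effects of 2 mutations of the Sox3 locus were each measured against wild-type (WT) testes from the mutant's own litters and then compared with each other. All 12 of the 12 arrays of the series were chosen by their labels and entered, in 4 groups of 3 whole testes from C57BL/6N mice aged 2 weeks. The Sox3-KO testes (KO 1 to KO 3) had 3 WT testes labelled as KO littermates (WT 4 to WT 6). The Sox3-Sox2KI testes (KI 1 to KI 3) had 3 WT testes labelled as KI littermates (WT 1 to WT 3). Both mutant lines were made with CRISPR/Cas9. The labels name the alleles without describing them. From general knowledge of this line, the Sox2 coding sequence stands in place of that of Sox3 in Sox3-Sox2KI mice, and the study asked whether SOX2 can act for SOX3. The labels do not say how many litters or founder animals each group came from, so the spread within a group may be that of 1 litter. The name of each array joins its group with the replicate number of the labels, which call the replicates biological.

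SOX3 is a transcription factor of the SoxB1 family, which also holds SOX1 and SOX2, and in the testis it is known from undifferentiated spermatogonia that are leaving the stem cell state. GFRA1 and RET form the receptor for GDNF, the Sertoli cell factor that maintains stem spermatogonia, while NEUROG3 is a transcription factor of the committed progenitors that follow. Under retinoic acid these cells become differentiating spermatogonia, switch on Stra8 and enter meiotic prophase, which the first wave of cells has reached at this age.

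Neurog3 and Gfra1, which passed the test in Sox3-KO testes, are shown first by the 300 bases around their start sites, 250 before and 50 after, from RefSeq on GRCm38.p6. The Neurog3 window is chr10:62132840-62133139 on the plus strand and the Gfra1 window is chr19:58455349-58455648 on the minus strand, each printed 5′ to 3′ along the gene. Capitals mark matches, on either strand, to ACAAT or ACAAAG, short core motifs of SOX factors that both begin with ACAA.
Neurog3: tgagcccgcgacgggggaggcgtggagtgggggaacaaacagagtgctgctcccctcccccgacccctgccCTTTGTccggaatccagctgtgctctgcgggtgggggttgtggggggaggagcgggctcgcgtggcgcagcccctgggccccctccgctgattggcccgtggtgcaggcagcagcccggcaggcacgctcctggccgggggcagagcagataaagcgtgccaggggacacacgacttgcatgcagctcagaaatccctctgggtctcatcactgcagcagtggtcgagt
Gfra1: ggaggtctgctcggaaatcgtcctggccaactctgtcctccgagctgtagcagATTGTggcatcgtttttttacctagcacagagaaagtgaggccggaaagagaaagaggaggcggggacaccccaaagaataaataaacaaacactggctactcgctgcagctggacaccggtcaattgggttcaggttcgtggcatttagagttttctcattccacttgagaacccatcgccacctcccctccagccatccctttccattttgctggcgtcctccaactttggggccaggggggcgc
The Neurog3 window held CTTTGT, the reverse complement of ACAAAG, 179 bases before the start. The Gfra1 window held ATTGT, the reverse complement of ACAAT, 197 bases before the start. Among 32851 RefSeq promoter windows of this length, 31.0% held ACAAT and 18.7% held ACAAAG on either strand, so such matches are common. They describe the letters only, since no binding was measured.

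The deposited values were log2 expression values, on which a difference of 1 is a 2-fold change, for 22180 genes with 1 transcript cluster each. Pairs of arrays correlated at 0.978 to 0.995 over genes. As a level for silent genes, the 95th percentile of 1105 olfactory receptor genes was 5.33, and 14547 genes lay above it. Each effect is mutant minus littermates, and their difference is the Sox3-Sox2KI effect minus the Sox3-KO effect, all from 1 limma fit with Benjamini-Hochberg adjustment over 22180 genes at 0.05. Precision was set by 3 testes a group: a 95% interval typically (median over genes) reached 0.255 to either side of an effect and 0.361 to either side of the difference.

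Against their own littermates, Neurog3 fell and Gfra1 rose in Sox3-KO testes, and no other gene passed. The 1 gene higher and the 1 gene lower were each 0.00451% of the genes tested. In Sox3-Sox2KI testes 0 genes passed in either direction (0% higher, 0% lower, smallest limma adjusted p 0.930). The difference between the effects likewise had 0 genes past the test (0% higher, 0% lower, smallest limma adjusted p 0.847). At an unadjusted limma p under 0.05, the KO effect had 9.22% of genes higher and 6.47% lower, or 3480 genes. The KI effect had 2.44% higher and 2.06% lower, or 1000 genes, and the difference had 2.24% higher and 3.59% lower, or 1293 genes. Genes in which all 3 mutant arrays lay outside all 3 littermate arrays made up 10.2% (higher) and 7.13% (lower) in KO, and 8.37% and 6.07% in KI. The SD of the effect over all genes was 0.223 in KO and 0.156 in KI. A 1.5-fold difference was exceeded by 105 higher and 360 lower genes in KO, against 20 and 99 in KI.

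Sox3 itself had lower mean values in both mutants than in their littermates. It measured 7.36, 7.30 and 7.24 in WT 4, WT 5 and WT 6, against 6.57, 6.60 and 6.65 in KO 1, KO 2 and KO 3. All 3 KO arrays thus lay below their littermates and above the background level. The KO effect was -0.69 (SE 0.11, limma adjusted p 0.0983), a 1.62-fold lower signal that missed the threshold after adjustment. The KI litters had Sox3 values of 7.26, 7.21 and 7.34 in WT 1, WT 2 and WT 3, and 7.26, 6.75 and 6.95 in KI 1, KI 2 and KI 3. KI 1 lay among its WT littermates, while KI 2 and KI 3 lay below them. The KI effect was -0.28 (SE 0.11, limma adjusted p 0.930). The difference was 0.41 (95% interval 0.07 to 0.75, limma adjusted p 0.847). In exact two-sided permutation tests over the 20 splits of 3 against 3, which cannot go below 0.1, Sox3 gave p = 0.1 for KO and p = 0.3 for KI. The probe positions relative to the changed part of the locus were not known here, so the signal that remained checks nothing about the alleles.

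Sox2, the gene carried by the knock-in, stayed under the background level in every group. It measured 3.81, 3.91 and 3.94 in WT 4 to WT 6, and 4.12, 4.02 and 4.22 in KO 1 to KO 3. Its values in the KI litters were 4.22, 4.15 and 4.20 in WT 1 to WT 3, and 4.51, 4.31 and 4.16 in KI 1 to KI 3. KI 1 and KI 2 lay above their littermates and KI 3 lay among them. The KI effect was 0.14 (95% interval -0.07 to 0.35, exact permutation p = 0.3) and the KO effect 0.24 (exact permutation p = 0.1). The Sox2 probe positions relative to the knock-in sequence were not known here either. These values therefore cannot show whether Sox2 was expressed from the knock-in allele. Sox1, the third SoxB1 gene, had effects of -0.03 in KO and 0.11 in KI, both with overlapping groups. The related Sox14 and Sox21 had KO effects of 0.14 and 0.00 and KI effects of 0.01 and -0.17.

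Neurog3 had the smallest adjusted p of any gene in KO. It measured 6.83, 6.49 and 6.83 in WT 4, WT 5 and WT 6, and 5.39, 5.09 and 5.53 in KO 1, KO 2 and KO 3. The groups did not overlap, and the KO mean of 5.34 ± 0.22 (SD, n = 3) was at the background level. Neurog3 fell by 1.38 on the log2 scale in KO (SE 0.13, limma adjusted p 0.00661), or 2.60-fold. KO 2 lay under the background level and KO 1 and KO 3 just above it, so this fold and the difference from KI may be understated. In the KI litters it measured 6.66, 6.45 and 6.50 in WT 1, WT 2 and WT 3, and 6.17, 5.97 and 6.19 in KI 1, KI 2 and KI 3. All 3 KI arrays lay below all 6 WT arrays and above all 3 KO arrays. The KI effect was -0.43 (95% interval -0.71 to -0.14, unadjusted limma p 0.00721, adjusted p 0.930). The effect in KI was smaller in size by 0.95 (95% interval 0.55 to 1.36, unadjusted limma p 0.00028, adjusted p 0.847), a difference that did not pass over all genes. KI minus KO was 0.78, from which the WT of KI litters minus the WT of KO litters, -0.17, is subtracted to give that difference. The KO call was lost without WT 4 (limma adjusted p 0.0705), without WT 6 (0.0666) or without KO 1 (0.0567), with effects of -1.32, -1.32 and -1.40. With only the 6 arrays of the KO litters in the fit, the effect was again -1.38 and the limma adjusted p was 0.470.

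Gfra1 had the opposite direction to Neurog3, with the same order of the groups. It measured 6.56, 6.58 and 6.60 in WT 4 to WT 6, and 7.27, 7.20 and 7.33 in KO 1 to KO 3. The 2 groups were tight and far apart. Gfra1 rose by 0.69 in KO (SE 0.08, limma adjusted p 0.0314), or 1.61-fold (95% interval 1.42 to 1.82). In the KI litters it measured 6.66, 6.41 and 6.62 in WT 1 to WT 3, and 6.91, 6.85 and 6.80 in KI 1 to KI 3. The KI arrays again lay between all 6 WT arrays and all 3 KO arrays. The KI effect was 0.29 (95% interval 0.11 to 0.47, unadjusted limma p 0.00442, adjusted p 0.930). The difference was -0.40 (95% interval -0.65 to -0.15, unadjusted limma p 0.00478, adjusted p 0.847). Without 1 of the 12 arrays, the adjusted p of the KO effect ranged from 0.0162 to 0.231 and the effect from 0.66 to 0.72. It passed only when the array left out was WT 2 or KO 2. A second Gfra1 cluster, with a mean of 3.74 and thus under the background level, had effects of -0.47 in KO and 0.46 in KI. The mean of both clusters gave a KO effect of 0.11 (limma adjusted p 0.619) and a difference of 0.26. With only the 6 arrays of the KO litters in the fit, the limma adjusted p of Gfra1 in KO was 0.470, and with array weights it was 0.0702.

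**Figure D1:**
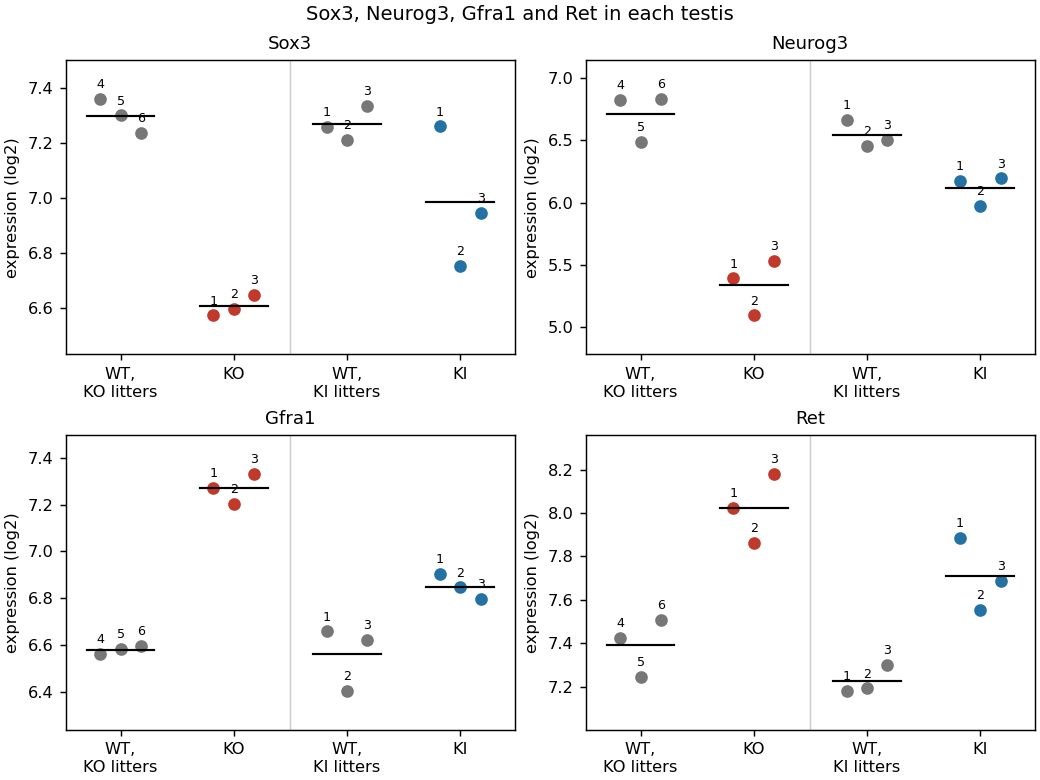
Log2 expression (vertical axis) of Sox3, Neurog3, Gfra1 and Ret in each of 12 testes, grouped as WT littermates of KO, KO, WT littermates of KI and KI; points carry replicate numbers and horizontal lines show group means. For Neurog3 and Gfra1 the 3 KI points sit between the WT and KO points, for Ret the KI points lie above all 6 WT points and reach into the range of KO, and for Sox3 KI 1 lies at the WT level.

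Ret, the signalling subunit of the GDNF receptor, had higher means in both mutants, and the interval of the difference between the effects covered 0. It measured 7.42, 7.24 and 7.51 in WT 4 to WT 6, and 8.03, 7.86 and 8.18 in KO 1 to KO 3. Among the KI litters, Ret measured 7.18, 7.19 and 7.30 in WT 1 to WT 3, and 7.89, 7.55 and 7.69 in KI 1 to KI 3. Neither mutant overlapped its own littermates. The KO effect was 0.63 (95% interval 0.39 to 0.87, limma adjusted p 0.120) and the KI effect 0.49 (0.24 to 0.73, limma adjusted p 0.930). Their difference was -0.14 (95% interval -0.49 to 0.20), so a difference of up to 0.49 remained within the interval. KI minus KO was -0.31, from which the WT of KI litters minus the WT of KO litters, -0.17, is subtracted. The difference thus depended on the control: it was -0.48 against the other line's WT littermates and -0.31 against all 6 WT.

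Gfra1 and Ret belong to the list of 19 stem-enriched spermatogonia genes, of which Gfra1 passed in KO, 18 did not, and none passed in KI or in the difference. The median effect was 0.22 in KO and 0.19 in KI, against 0.03 and 0.01 over all genes. At an unadjusted p under 0.05, 8 genes were higher in KO (9.22% of all genes) and 5 in KI (2.44%). At this level 0 were lower in either (6.47% and 2.06%), and 4 had a lower effect in KI than in KO (3.59%). Those 4 were Gfra1, Etv5, Foxc2 and Nanos2. Etv5, a GDNF-responsive transcription factor, had effects of 0.40 in KO and 0.10 in KI. A second Etv5 cluster, at a mean of 6.21 and above background, had the opposite order, with 0.09 in KO, 0.33 in KI and a difference of 0.24. Bcl6b and Lhx1 of the list also had the opposite order, with KO effects of -0.16 and 0.01 and KI effects of 0.22 and 0.24. Foxc2, a transcription factor of quiescent stem spermatogonia, had effects of 0.62 in KO and 0.08 in KI. Tcl1, a kinase co-activator, had 0.22 in KO and 0.32 in KI, and Mcam, an adhesion molecule, had 0.32 and 0.21. Zbtb16, a transcriptional repressor of undifferentiated spermatogonia, had effects of 0.08 in KO and 0.22 in KI, and Id4, a marker of stem spermatogonia, had -0.25 and -0.14. Without WT 5 the KO median was 0.13, and without WT 2 the KI median was 0.11. The median of the difference over the list was -0.11. With the mean of a gene's clusters it was -6e-04.

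Of the 14 committed progenitor genes, Neurog3 was the only one past the test in KO, and none of the 14 passed in KI or in the difference. The list's medians were -0.0022 in KO and 0.12 in KI. Cdh1, an adhesion molecule of undifferentiated spermatogonia, was 0.50 higher in KO and 0.15 higher in KI. Lin28a, an RNA-binding protein of progenitors, had effects of opposite sign, -0.32 in KO and 0.28 in KI, with no overlap with littermates in either line. Its difference was 0.59 (unadjusted limma p 0.00754, adjusted p 0.847). Sohlh2 and Sohlh1, a pair of transcription factors needed for differentiation, had KO effects of -0.28 and 0.19 and KI effects of -0.09 and -0.05.

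The 14 differentiating spermatogonia genes had a median effect of -0.23 in KO and 0.02 in KI, and none passed in any comparison. At an unadjusted p under 0.05, 8 were lower and 1 higher in KO, against 6.47% and 9.22% of all genes. In KI 0 were lower and 1 was higher, against 2.06% and 2.44%, and in the difference 5 were higher in KI, against 2.24%. Stra8, which cells need to enter meiosis, had effects of -0.26 in KO and 0.16 in KI, a difference of 0.43. Kit, the receptor that marks differentiating spermatogonia, had -0.19 and 0.03. Prss50 and Tex101 had the lowest KO effects, -0.76 and -0.96, against -0.09 and -0.41 in KI. Dnmt3a, a DNA methyltransferase, was the 1 gene that was higher at this level in either line, at 0.31 in KO and 0.20 in KI.

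The retinoic acid pathway (21 genes) had medians of -0.14 in KO and 0.05 in KI, with none past any test. Cyp26b1, which degrades retinoic acid, had a KO effect of 0.36 and a KI effect of 0.10. Rdh11 and Rbp4, a retinal reductase and the retinol carrier, had KO effects of -0.58 and -0.30 and KI effects of -0.36 and 0.04. The median in KO ranged from -0.24 without WT 5 to -0.04 without KO 2.

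Early meiotic prophase genes were lower in KO than in its littermates in 39 of 39 cases, 35 of them at an unadjusted p under 0.05 (6.47% of all genes), though none of the 39 passed after adjustment. The median effect was -0.60 in KO and -0.15 in KI, where it was -0.07 without KI 1. In KI 29 were lower, 0 of them at an unadjusted p under 0.05 (2.06% of all genes), and none passed. The mean of the list was 8.44, 8.66 and 8.49 in WT 4, WT 5 and WT 6, and 7.70, 8.29 and 7.81 in KO 1, KO 2 and KO 3. KO 2 lay closest to its littermates, with no overlap. In the KI litters it was 8.58, 8.69 and 8.57 in WT 1 to WT 3, and 8.30, 8.52 and 8.59 in KI 1 to KI 3. KI 3 lay among its littermates, and KI 1 and KI 2 lay below them. The difference was positive for 39 of 39 genes, 10 of them at an unadjusted p under 0.05 (2.24% of all genes), with a median of 0.43. Leaving out 1 array moved that median between 0.31 and 0.56.

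Single genes of early meiosis followed that order with different sizes. Meiob, needed for meiotic recombination, had the lowest KO effect of the list, -1.66 against -0.43 in KI. Spo11, which makes the double-strand breaks, had -1.08 and -0.19, and Dmc1, the meiotic recombinase, -0.79 and -0.06. Of the synaptonemal complex genes, Sycp2 had -0.85 and -0.32, Sycp1 -0.60 and -0.34, and Syce3 -0.80 and -0.26. Hormad1, a protein of the chromosome axis, had the lowest KI effect, -0.54, against -1.10 in KO. Rec8, the meiotic cohesin, had effects of -0.20 in KO and 0.17 in KI.

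Genes of pachytene and later meiosis had the same direction in both lines, with wide spread among WT arrays. Of 31 genes, 28 were lower in KO and 29 in KI, 18 and 2 of them at an unadjusted p under 0.05 (6.47% and 2.06% of all genes), and none passed. The medians were -0.48 in KO and -0.29 in KI. The list mean was 7.38, 8.13 and 7.20 in WT 4, WT 5 and WT 6, and 6.63, 7.31 and 6.69 in KO 1, KO 2 and KO 3. KO 2 lay above WT 6, so the groups overlapped. For the KI litters it was 8.02, 8.11 and 7.77 in WT 1 to WT 3, and 7.45, 7.79 and 7.65 in KI 1 to KI 3. KI 2 lay just above WT 3, so these groups overlapped too. Without WT 5 the KO median was -0.27 and the median difference was 0.06 in place of 0.19. When each mutant was set against the other line's WT littermates instead, the medians were -0.89 in KO and 0.04 in KI. Fabp9, a fatty acid binding protein of spermatocytes and later cells, had the lowest KO effect of all genes, -2.39, against -0.77 in KI. Its 95% interval for the difference, together with those of Cers3 and Hsf5, covered 0.

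**Figure D2:**
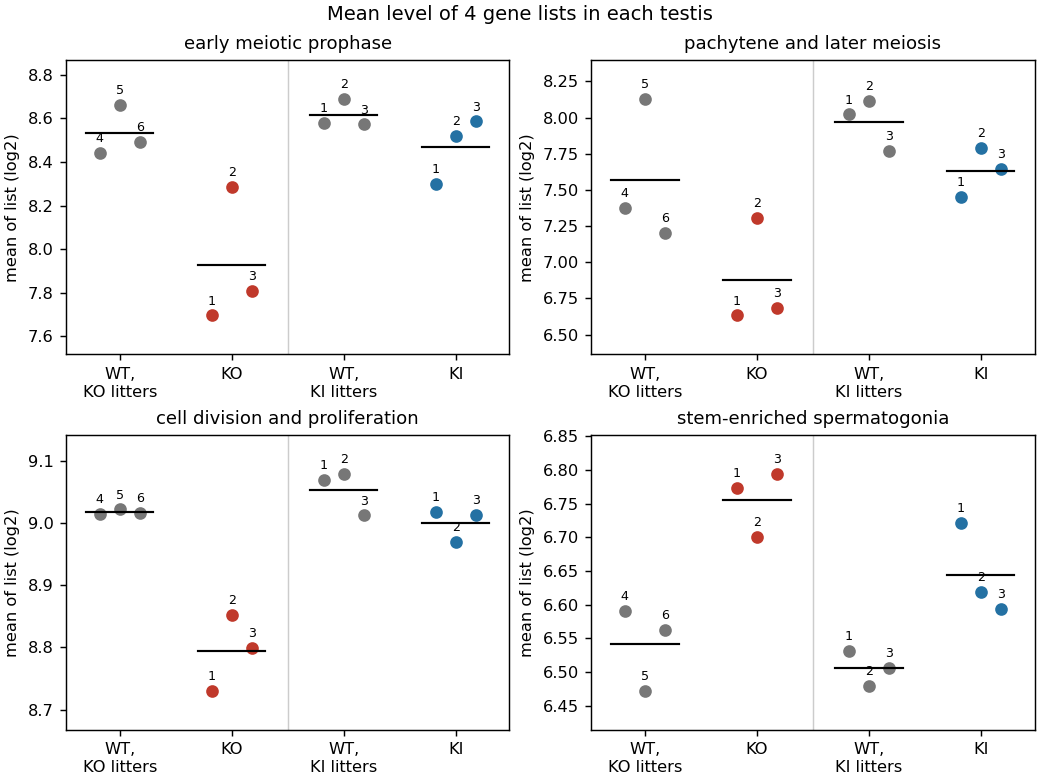
Mean log2 level (vertical axis) of the early meiotic prophase, pachytene, cell division and stem-enriched lists in each testis, by group, with replicate numbers and horizontal lines at the group means. For early meiosis and cell division the KO arrays lie below all WT arrays, KO 2 is the highest KO array of the meiotic lists, and for pachytene genes WT 5 stands well above WT 4 and WT 6.

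Germ cell genes expressed across stages (30 measured) had medians of -0.39 in KO and -0.19 in KI, with 27 and 24 lower and none past any test. Dazl, an RNA-binding protein of germ cells, had effects of -0.39 in KO and -0.12 in KI. Mov10l1 and Mael, of the piRNA pathway, had -0.58 and -0.30 in KO and -0.31 and -0.20 in KI. Piwil4 was an exception, at 0.39 in KO and 0.29 in KI. Cell division genes (27) had a median of -0.24 in KO, where 16 had all KO arrays below all littermates, and -0.03 in KI, where 5 did. Over all genes 7.13% and 6.07% lay lower in this way. Mki67, a proliferation marker, had -0.27 and -0.03, and Top2a -0.41 and -0.08. None of the 27 passed in either line or in the difference. Spermatid genes (20, of which 7 were above background), replication-dependent histone genes (13) and p53 targets (17) had medians between -0.09 and 0.10 in both lines, with none past any test. Of the histones, the testis genes H2bc1 and H1f6 had KO effects of -0.66 and -0.90 and KI effects of -0.30 and -0.63.

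Markers of the somatic cells of the testis had mostly positive effects in KO and smaller ones in KI, with none past any test. Sertoli cell markers were higher for 22 of 26 genes in KO (median 0.21) and 24 of 26 in KI (median 0.10). Their mean spanned 9.10 to 9.21 in WT 4 to WT 6 and 9.26 to 9.41 in KO, and 9.07 to 9.12 in WT 1 to WT 3 and 9.14 to 9.25 in KI. The medians of the somatic and the meiotic lists thus had opposite signs in KO. In whole testes fewer germ cells cannot be told apart from less germ cell RNA per cell. The part of this shift in the results for Neurog3, Gfra1 and the meiotic lists was not tested. Gdnf, the ligand of GFRA1 and RET, had effects of 0.25 in KO and -0.06 in KI. Amh, the hormone of immature Sertoli cells, had 0.62 in KO and 0.12 in KI. Leydig cell markers (14) had medians of 0.25 and 0.03, peritubular and smooth muscle markers (16) 0.13 and 0.06, interstitial fibroblast markers (16) 0.25 and -0.0035, endothelial markers (15) 0.13 and 0.09, and macrophage and immune markers (16) 0.15 and -0.05. Single arrays carried much of these values: the fibroblast median in KO was 0.15 without WT 5, the endothelial one 0.08 without KO 3, and the macrophage one 0.08 without KO 1. The mean KO effect of the endothelial markers went from 0.13 to 0.05 without WT 5, and that of the Leydig markers from 0.25 to 0.11 without WT 4. Of the fibroblast markers, Pdgfra had 0.56 in KO and 0.06 in KI. None of the 3 erythroid markers and 6 of the 16 epididymis markers were above background. The defining markers of testis cells (Sox9, Wt1, Zbtb16, Sycp1, Cyp17a1) were all above background.

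**Figure D3:**
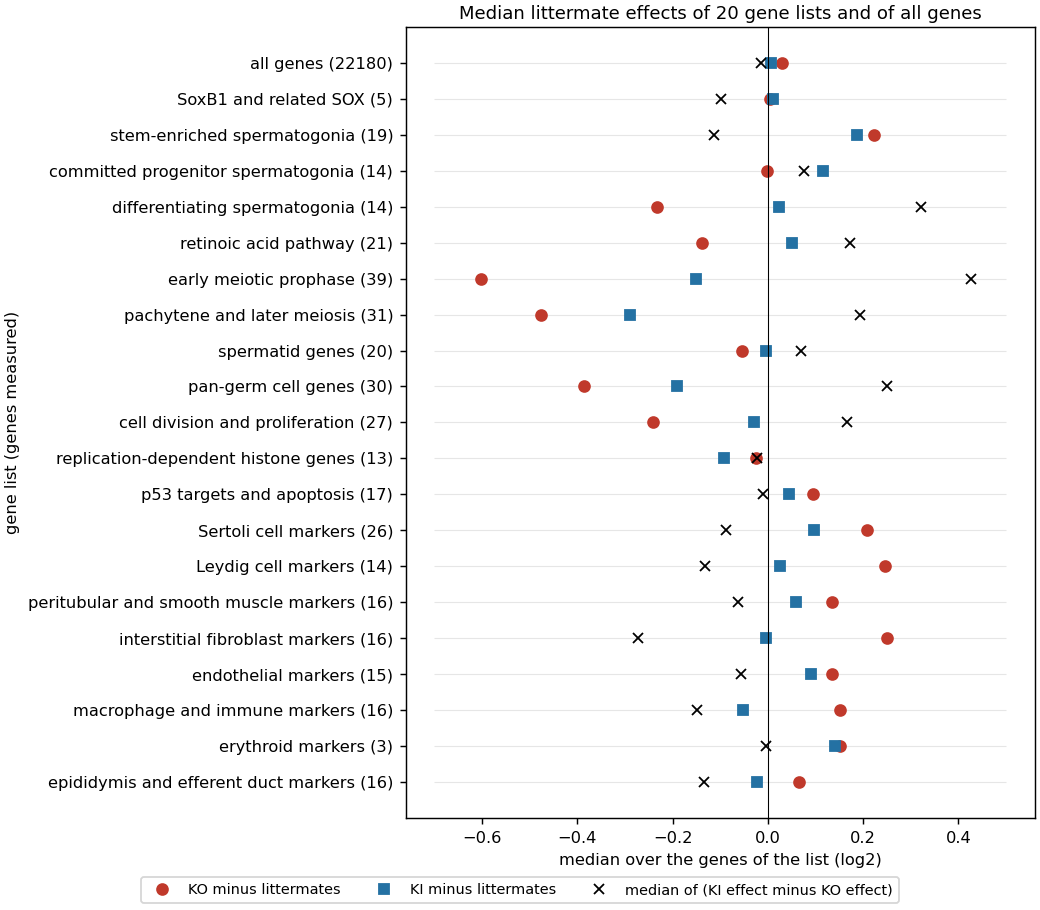
Median log2 effect (horizontal axis) of 20 gene lists and of all genes, with KO minus littermates as circles, KI minus littermates as squares and the median of the difference as crosses; numbers in brackets are genes measured. The early meiotic list has the largest KO median, -0.60, and the largest median difference, 0.43, while the stem-enriched medians of KO and KI lie close together at 0.22 and 0.19.

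The other genes of smallest p in KO were Fam221b (-0.66), Tgfbi (0.58), Adgrl3 (1.02), H2-K1 (-0.60), Bhlhe41 (0.61) and Crtac1 (-0.47), given here as KO effects, with Gm5751 and Mir878. No size is given for those 2, since Mir878 lay under background and Gm5751 did in its WT littermates. Adgrl3 also averaged under background in the WT littermates of KO (5.06) and of KI (5.10), so its sizes are uncertain. A second Adgrl3 cluster, at a mean of 4.30 and under background, had a KO effect of 0.07. All 8 had an adjusted limma p between 0.0555 and 0.0983 and did not pass. Bhlhe41, a transcriptional repressor, measured 6.47, 6.15 and 6.40 in WT 4 to WT 6 and 6.91, 6.94 and 7.01 in KO, with a KI effect of 0.02. H2-K1, a classical class I histocompatibility gene, measured 8.82 ± 0.03 (SD, n = 3) in WT 4 to WT 6 and 8.22 ± 0.19 in KO, without overlap, with a KI effect of -0.06. Tgfbi, an extracellular matrix protein, had a KI effect of 0.17, and Adgrl3, an adhesion receptor, one of 0.27. Crtac1, an extracellular matrix protein, was lower in both lines, at 5.97, 6.04 and 5.99 in WT 4 to WT 6 against 5.63, 5.49 and 5.47 in KO. It measured 5.96, 6.05 and 6.00 in WT 1 to WT 3 against 5.74, 5.67 and 5.61 in KI. No mutant array reached any WT array, and the KI effect was -0.33 (SE 0.07, limma adjusted p 0.930).

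None of the 10 genes of smallest p in KI passed. Pcdhb14, a protocadherin, was higher than its littermates in both lines, at a mean level under background. Hivep2, a zinc finger transcription factor, measured 6.96, 7.11 and 7.26 in WT 1 to WT 3 and 7.49, 7.58 and 7.61 in KI. It was 0.45 higher in KI and 0.25 higher in KO than in littermates. The KO and KI means were both 7.56, and the WT of KI litters minus the WT of KO litters was -0.20. Prkx, an X-linked protein kinase, measured 7.55, 7.48 and 7.52 in WT 1 to WT 3 and 8.05, 7.83 and 7.87 in KI. The KI effect was 0.40 and the KO effect 0.05. In WT 4 to WT 6 Prkx measured 7.73, 7.61 and 7.82, close to KI 2. KI minus KO was 0.15, and the WT of KI litters minus the WT of KO litters was -0.20. Dio3, which inactivates thyroid hormone, was lower in KI, at a mean level under background. Fam155a had a KI effect of -0.51, but its KI mean of 5.21 was under background, so this size is uncertain. Its WT of KI litters minus WT of KO litters was 0.33, and KI minus KO was -0.19. The others, 5430440P10Rik, Olfr835, Tmc5 and 1700120E14Rik, had means under background.

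The 10 genes of smallest p in the difference included Neurog3, and none passed. The others above background were Gm21082 (difference -1.19), Sh3rf2 (-0.54) and Cyp2j6 (-0.98). For these in turn, the WT of KI litters minus the WT of KO litters was 0.46, 0.14 and 0.16. Mir878, Xist, Vmn2r75, Alms1-ps2, Olfr1122 and Mir193b had means under background, where the size of a difference cannot be read. Of these 10 genes, Neurog3 was the only one with the same sign in both lines. Being picked by the difference already favours opposite signs. Xist, the RNA that silences an X chromosome in female cells, measured 5.35, 5.23 and 5.56 in WT 4 to WT 6 and 4.67, 4.86 and 4.61 in KO. It measured 5.06, 5.10 and 5.08 in WT 1 to WT 3 and 5.02, 5.33 and 5.31 in KI. All its levels were near or under background. Cyp2j6, a cytochrome P450, measured 5.57, 5.40 and 5.92 in WT 4 to WT 6 against 6.52, 6.11 and 6.28 in KO, and 5.82, 5.79 and 5.76 in WT 1 to WT 3 against 5.47, 5.62 and 5.33 in KI. It thus lay above its littermates in every KO array and below them in every KI array.

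**Figure D4:**
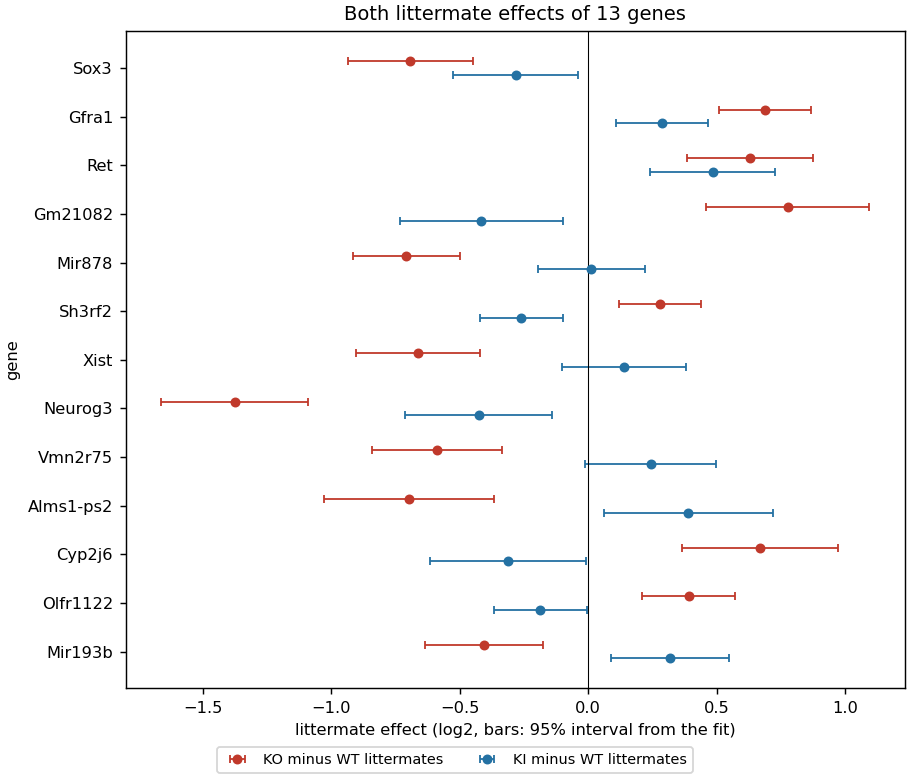
Log2 effects against own littermates (horizontal axis) of Sox3, Gfra1, Ret and the 10 genes of smallest p in the difference, KO in red and KI in blue, with 95% intervals from the fit; Mir878, Xist, Vmn2r75, Alms1-ps2, Olfr1122 and Mir193b have means under background. The KO and KI intervals of Neurog3 do not overlap and both lie below 0, while those of Ret overlap over most of their length.

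The effects in the 2 lines share no array, so they can be set against each other gene by gene. Over 22180 genes they correlated at Pearson r 0.355 (Spearman 0.260), and over the 14547 genes above background at 0.537 (Spearman 0.402), as a description across genes, which are not independent. The sign was the same for 59.4% and 64.3% of these genes. Above background, 318 genes were at least 1.5-fold lower in KO, and 312 of them were also lower in KI. Their median effect was -0.78 in KO and -0.39 in KI, and 316 of them had the smaller size in KI, where being picked for a large KO effect already favours a smaller one. The difference passed for 0 of the 318, with 42 at an unadjusted p under 0.05. Over all genes 2.24% were higher and 3.59% lower in the difference at that level. Of the set, 20 were early meiotic and 14 pachytene genes of the lists. Its mean was 7.11, 8.07 and 6.97 in WT 4 to WT 6 and 6.24, 6.99 and 6.28 in KO 1 to KO 3. WT 5 stood above the other WT arrays, and KO 2 lay just above WT 6. In a check chosen after seeing the data, the mean KO effect of these genes went from -0.88 to -0.54 without WT 5, and the median from -0.78 to -0.53. In the KI litters, which did not pick the set, it was 7.85, 8.02 and 7.67 in WT 1 to WT 3 and 7.20, 7.64 and 7.54 in KI 1 to KI 3. All KI arrays lay below their littermates, by a small margin between KI 2 and WT 3. Without KI 1 the KI median was -0.24. The WT of KI litters were higher than the WT of KO litters for this set by a median of 0.41.

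Above background, 49 genes were at least 1.5-fold higher in KO, and 41 of them were higher in KI, with medians of 0.68 and 0.18. Starting from KI instead, 67 genes were at least 1.5-fold lower, and 67 of 67 were lower in KO, with medians of -0.67 in KI and -1.11 in KO. The mean of this set was 6.51, 8.28 and 6.28 in WT 4, WT 5 and WT 6, and 5.59, 6.56 and 5.59 in KO 1, KO 2 and KO 3. KO 2 thus lay above WT 4 and WT 6, and 3 of the 67 genes had all KO arrays below all littermates, against 7.13% of all genes. Without WT 5, 58 of the 67 were lower in KO and the KO median was -0.44. The WT of KI litters were higher than the WT of KO litters by a median of 0.96. All 3 mutant arrays lay on the same side of their littermates in both lines for 422 genes (higher) and 202 genes (lower), together 2.81% of all genes. They lay on opposite sides for 105 genes, or 0.47%.

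**Figure D5:**
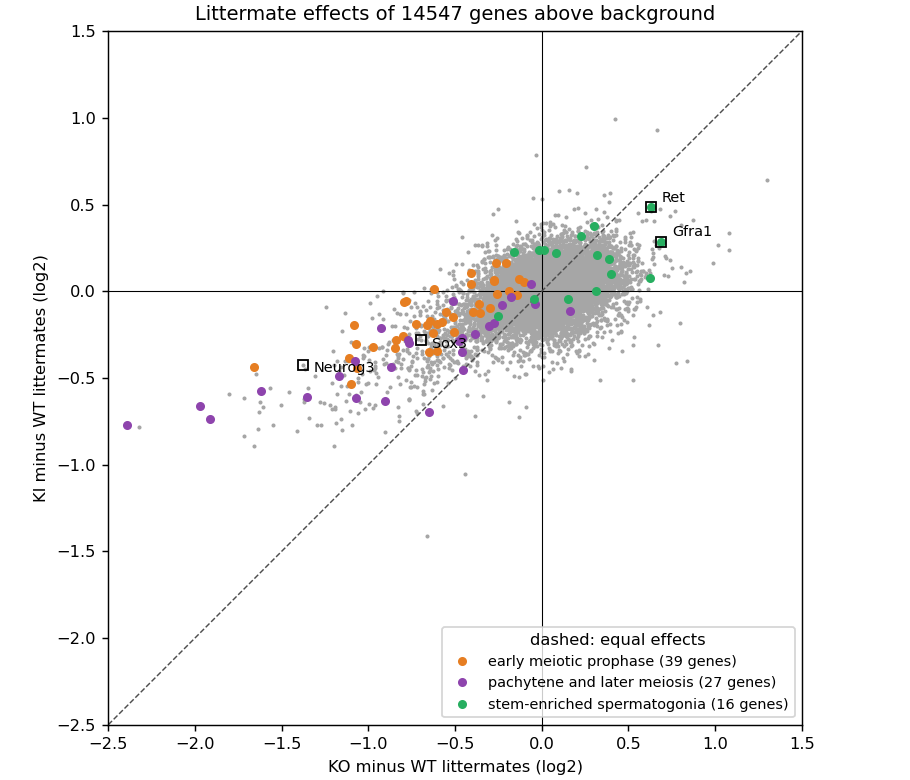
KO effect (horizontal axis) against KI effect (vertical axis), both log2 and against own littermates, for 14547 genes above background, with early meiotic, pachytene and stem-enriched genes coloured and a dashed line of equal effects. All 39 early meiotic genes lie left of 0 and above the dashed line, and Gfra1 and Ret lie at the upper right.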

How the data were processed

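Per the labels' protocols, RNA of each whole testis was extracted with Trizol, treated with DNase on RNeasy columns and labelled with the Affymetrix WT PLUS reagent kit, 1 array per testis. The authors deposited log2 expression values per transcript cluster (41345 clusters, 0.915 to 13.9). The submitters' processing notes name RMA, Affymetrix Expression Console and Partek 6.6. Which of them corrected the background or filtered probes is not stated there. RMA leaves changes relative to the other genes of an array.

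Clusters were named from the platform annotation: 23521 had 1 gene symbol, 1814 several and 16010 none. A gene with several clusters (1082 genes) was represented by that of highest mean over 12 arrays. Of 22180 genes, 21994 matched the RefSeq gene table, and 372 of 417 listed members were measured. In a fit and adjustment over all 41345 clusters, 0 of the other 17824 passed in any comparison (limma, smallest adjusted p 0.147).

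Effects and their difference were contrasts of a 4-group limma model (version 3.58.1, R 4.3.3, moderated, two-sided) over 12 arrays, checked on simulated data. Permutation tests were also run in R 4.3.3, and figures used Python 3.11.15 with matplotlib 3.10.9. No filter was applied. Replicate numbers of KI and WT 1 to WT 3 were not used as pairs. A check by correlation of deviations from group means of 3 arrays cannot show whether these numbers pair littermates.

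The members, the 20 gene lists and the tests were chosen with earlier results of these data known. Named genes were Sox3, Sox2 and Sox1, the passing genes and those of smallest p up to 10 per comparison, and members of each list past a test or otherwise the 2 of highest level. Other list members named in the text, the genes of the 1.5-fold sets and the protocadherins were chosen after their values were seen. Groups of 3 that do not overlap are described, not tested. P-values set an effect against the spread between these testes. In limma that spread was estimated over all 4 groups and moderated across genes, so KO p-values also rest on the KI litters.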

Additional observations from a re-analysis of the deposited data

Results flagged for a closer look

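For 5 of the genes of smallest p in the difference, every KO array lay on one side of its littermates and every KI array on the other. They were Cyp2j6 (difference -0.983), Mir193b (0.723), Olfr1122 (-0.578), Sh3rf2 (-0.541) and Vmn2r75 (0.833). The difference was tested as a contrast in limma, and none of the 5 passed (adjusted p 0.847 for each). They were taken from the genes of smallest p, and 105 of 22180 genes, or 0.47%, showed such opposite sides. Olfr1122 and Vmn2r75 lay far under the background level of 5.33 and Mir193b had a mean under it, where sizes cannot be read. Mir193b measured 5.53, 5.33 and 5.43 in WT 4 to WT 6 against 5.21, 5.01 and 4.87 in KO, and 5.10, 5.17 and 5.16 in WT 1 to WT 3 against 5.32, 5.43 and 5.63 in KI. Sh3rf2 measured 5.52, 5.36 and 5.36 in WT 4 to WT 6 against 5.70, 5.65 and 5.73 in KO. It measured 5.59, 5.58 and 5.50 in WT 1 to WT 3 against 5.36, 5.28 and 5.26 in KI, where its mean of 5.30 was under background.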

How the results depend on the processing

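The 2 genes that passed in KO became 12 among genes above background, 41 with a trended and robust prior, 1 with array weights, with the mean of a gene's clusters or with all clusters, and 0 with only the 6 arrays of the KO litters (2286 at an unadjusted limma p under 0.05). Against the other line's WT littermates 1345 passed, and against all 6 WT 1078. Leaving out 1 array gave 0 to 605: 605 without KO 2, 0 without WT 4, WT 6 or KO 1, and 1 without WT 1, WT 3, WT 5, KO 3, KI 2 or KI 3. The cause was not tested. Median centring and a new quantile normalization gave 2 and 3. In KI and in the difference, 0 genes passed under every alternative run. At an unadjusted p under 0.05, KI had 1726 genes with its 6 arrays alone and 1750 with array weights, and the difference had 3870 with the other WT, 3993 with all 6 WT and 2310 without KO 2.

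After group means were removed, same-numbered KI and WT testes correlated over genes at 0.0661, 0.0387 and -0.0228. Those with different numbers correlated at -0.0729 to 0.0377. With the replicate block, KI had 0 passing genes and 1725 at an unadjusted p under 0.05, against 1726 without it. KO and its littermates share no numbers. Among genes that passed or had the smallest p in a comparison, 2 differences reversed sign against the other line's WT littermates. They were Alms1-ps2 (-0.284) and Vmn2r75 (-0.134). Other named genes changed sign too, such as the Gfra1 difference, which was 0.26 with the mean of a gene's clusters. Against the other line's WT littermates, the differences of Sox2 and Sox1 were 0.51 and -0.08, and the Sox2 KO effect was -0.07. Of the list medians under alternatives, 1156 moved by less than the spread between replicates and 101 by more.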

Other observations

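The protocadherin beta genes, a cluster of near-identical adhesion genes that arrays may not separate, were measured for 22 members, of which 4 lay above background. The KO effect was positive for 20 and the KI effect for 16, with medians of 0.30 and 0.10, and none passed. Pcdhb14, Pcdhb15, Pcdhb12 and Pcdhb17 were higher than every littermate array in both lines, as were 422 of 22180 genes, or 1.90%. Of these 4, Pcdhb17 had a mean above the background level of 5.33, while Pcdhb14 (5.11), Pcdhb15 (4.71) and Pcdhb12 (5.28) had means under it. These genes were picked after Pcdhb14 was seen among the genes of smallest p.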
